A study of Homo sapiens with 9 samples.

Results

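The replication-dependent histone genes were examined in poly(A)-selected RNA of HEK293T cells, a human embryonic kidney line. A gene was taken if its name in the deposited tables began with HIST1H, HIST2H, HIST3H or HIST4H or had the newer form of these names, if it was not a pseudogene, and if its raw count averaged 10 or more over the 9 libraries. Of 57500 genes in the count files, 36 passed on name and count, 2 of these were pseudogenes, and 34 remained. They comprised 2 H1, 7 H2A, 11 H2B, 6 H3 and 8 H4 genes, 27 of them on chromosome 6, 6 on chromosome 1 and 1 on chromosome 12. The cells had been kept for 5 h with 10 µM HBC530, with 10 µM MsOc3HBC or with the vehicle DMSO, in 3 biological replicates each. HBC530 is a fluorogenic ligand that binds the Pepper RNA aptamer without a covalent bond, and MsOc3HBC is a derivative of the same fluorophore that carries a reactive handle with a mesylate leaving group. The treatments served to ask whether a ligand that can alkylate RNA disturbs cellular transcripts. All groups were the same cell line, and no aptamer construct is given for them in the labels.

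Replication-dependent histones are the bulk histones made during S phase to wrap newly copied DNA. Their genes lie in clusters, have mostly no introns, and give the only known animal mRNAs that end in a conserved stem-loop in place of a poly(A) tail. The stem-loop is bound by the protein SLBP, cleavage behind it needs the U7 snRNP, and the mRNA is degraded when DNA synthesis stops. Some of these genes can also yield a longer, polyadenylated transcript when cleavage at the stem-loop is passed over, so a poly(A)-selected library is expected to hold only a small share of their RNA. In RNA of a whole culture, fewer cells in S phase and less histone RNA per cell cannot be told apart.

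The stem-loops were read from GRCh38 for each gene, since they are the feature that sets these mRNAs apart from polyadenylated ones. A stretch of 16 bases was searched on the sense strand within 100 bases after the stop codon. It had to begin with GG, end with CC, pair over 6 bases by Watson-Crick pairs and have a loop that starts with TT. The stretch was found in 32 of the 34 genes and in 0.341% of 19937 coding genes. After a wider rule was added that allowed G-T pairs and any loop starting with T, it was found in all 34 and in 0.622% of coding genes. The 5 genes with the highest levels are shown first, then HIST1H3H and HIST1H4D, which had the smallest p-values of the comparisons reported here, then the 2 genes that needed the wider rule. Capitals mark the 16 bases of the stem and loop, and the place given is that of the capitals in GRCh38.
HIST1H2BK, minus strand, chr6:27146366-27146381: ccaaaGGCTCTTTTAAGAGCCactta
HIST3H2A, minus strand, chr1:228457369-228457384: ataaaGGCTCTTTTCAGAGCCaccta
HIST1H1C, minus strand, chr6:26055744-26055759: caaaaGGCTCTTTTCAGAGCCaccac
HIST1H4C, plus strand, chr6:26104317-26104332: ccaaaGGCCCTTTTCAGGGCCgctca
HIST1H4I, plus strand, chr6:27139654-27139669: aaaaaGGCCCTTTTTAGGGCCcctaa
HIST1H3H, plus strand, chr6:27810516-27810531: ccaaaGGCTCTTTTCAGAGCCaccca
HIST1H4D, minus strand, chr6:26188715-26188730: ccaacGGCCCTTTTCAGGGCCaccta
HIST1H2AG, plus strand, chr6:27133515-27133530: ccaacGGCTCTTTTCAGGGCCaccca
HIST1H3E, plus strand, chr6:26225596-26225611: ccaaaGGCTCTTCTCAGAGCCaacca

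The form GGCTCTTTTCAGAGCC was present in 19 of the 34 genes, and in 0.206% of coding genes. All 8 H4 genes had a different stem, which begins GGCCCT. In 7 of them the stretch was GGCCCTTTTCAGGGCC, and HIST1H4I differed from these in its loop. The form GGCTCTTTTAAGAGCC occurred in 4 H2B genes, HIST1H2BC, HIST1H2BD, HIST1H2BJ and HIST1H2BK, and in no gene of another family. HIST2H2AC had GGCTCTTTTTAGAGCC. The stretch began between 22 and 57 bases after the stop codon.

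The gene models in the count files, that is the exons over which reads were counted, did not all reach this stem-loop. In 20 genes the model ran more than 30 bases past it, and in 14 genes it ended at or before it. Models of the first kind were 438 to 5477 bases long with a median of 1577.5, and models of the second kind were 312 to 775 bases long with a median of 402. The polyadenylation signal AATAAA stood in the last 50 bases of the model, sense strand, in 10 of the 20 longer-running models and in 1 of the 14 others, against 58.6% of all coding gene models. Both H1 genes had models that ended early, whereas 9 of the 11 H2B models ran past the stem-loop.

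Levels were expressed as CPM, the count relative to a library's total after scaling by edgeR's TMM factors, and between genes as CPM per kilobase of gene model. The 34 genes together had 3038 to 6290 raw counts per library, and library totals were 28056929 to 62205366 counts. The sum over the 34 genes was 90.1, 102 and 101 CPM in the DMSO libraries, 103, 94.6 and 121 CPM with HBC530, and 89.5, 92.4 and 113 CPM with MsOc3HBC, in the order of replicates 1 to 3. The group means were 97.5 ± 6.40, 106 ± 13.3 and 98.4 ± 13.0 CPM (SD, n = 3). The groups overlapped, and the highest value of either ligand was that of replicate 3.

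**Figure D1:**
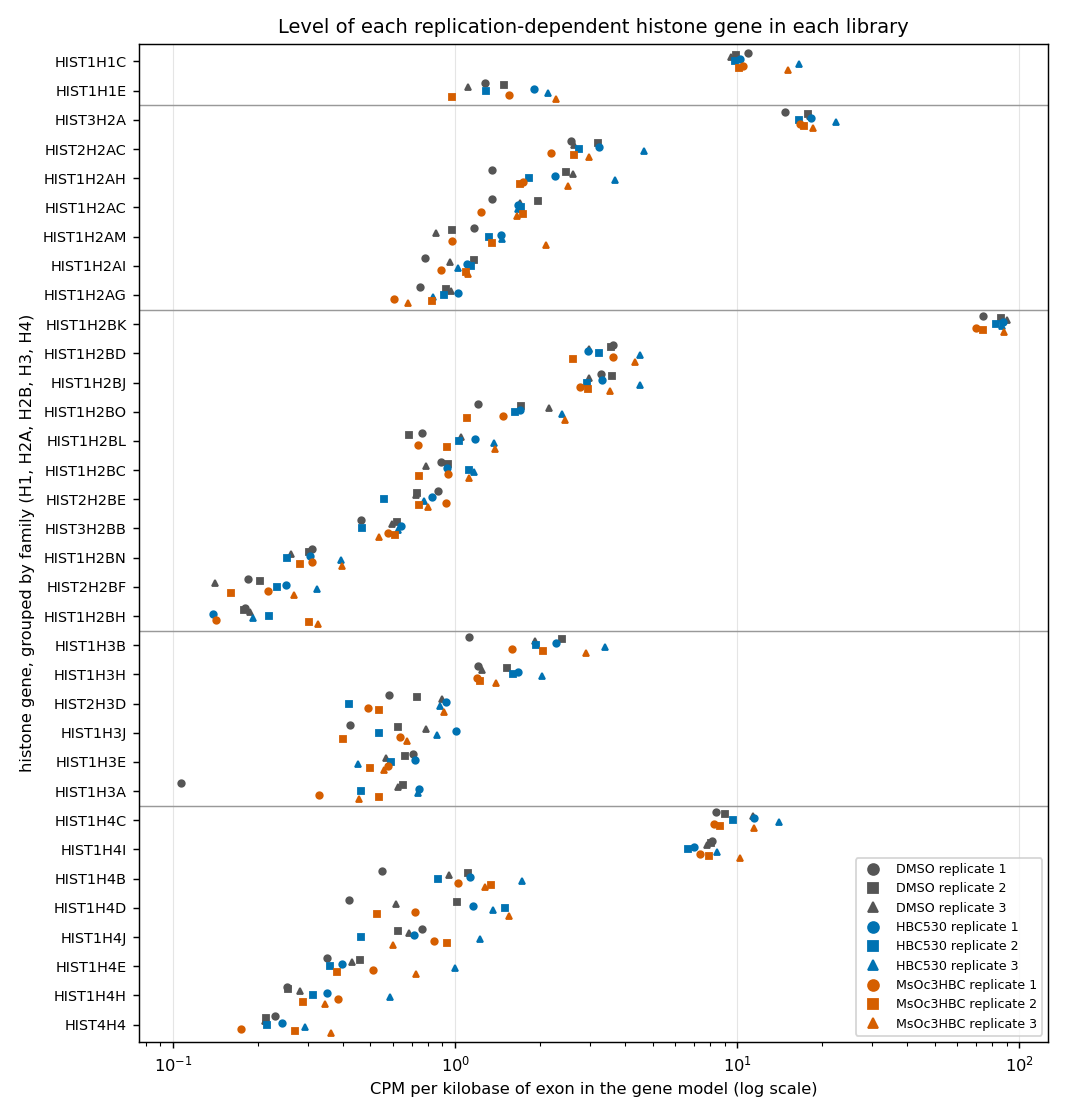
Level of each of the 34 histone genes in each of the 9 libraries, in CPM per kilobase of gene model on a log axis, grouped by family. Colour gives the treatment and marker shape the replicate, and HIST1H2BK stands apart from all others at 70.2 to 90.4 CPM per kilobase.

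The counts were concentrated in a few genes. HIST1H2BK, an H2B gene at chr6:27146418-27146798, had the highest level, 82.2 CPM per kilobase on average over the 9 libraries, and held 27.5 to 34.2% of the summed CPM of the group. Its model of 381 bases ends 52 bases before the end of its stem-loop. The next were HIST3H2A at 17.8, HIST1H1C at 11.4, HIST1H4C at 10.2 and HIST1H4I at 7.96 CPM per kilobase. These 5 genes made up 67.0 to 71.1% of the summed CPM in every library. The ranges of HIST1H1C, 9.49 to 16.5, HIST1H4C, 8.24 to 14.1, and HIST1H4I, 6.71 to 10.2 CPM per kilobase, overlapped, and so did those of HIST1H1C and HIST3H2A, 14.7 to 22.4. The range of HIST1H2BK, 70.2 to 90.4, overlapped with none of them. The plot of the level of each gene shows this gap.

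Below these 5 genes, levels lay between 0.207 and 3.49 CPM per kilobase. The median over the 34 genes was 0.924 ± 0.0905 CPM per kilobase in DMSO, 1.21 ± 0.132 with HBC530 and 1.07 ± 0.221 with MsOc3HBC (SD, n = 3). For comparison, 12 histone genes were listed as replication-independent, whose mRNAs are mostly polyadenylated. H2AFZ, the gene of H2A.Z, was the highest of them at 393 CPM per kilobase on average over the 9 libraries. Their median was 70.9 ± 2.98 CPM per kilobase in DMSO. Only HIST1H2BK was above that median. By current symbol or deposited name, 66 coding replication-dependent histone genes were found in the files. Of these, 34 passed the limit of 10, 20 had counts below it and 12 were at 0 in every library. Only unique hits were counted, so a low count or 0 in a near-identical copy can also mean reads that were not placed. The members nearest the limit were HIST1H3A with a mean of 10.4 and HIST1H4J with 13.4 raw counts, and just outside it, named by RefSeq symbols, were HIST1H2AB with 9.56 and HIST1H2BE with 9.11.

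Precision followed the count. For the 18 genes with a mean raw count under 50, the SD of log2 CPM within treatments had a median of 0.44, where counting error alone would give 0.29. For the 16 genes with 50 or more it was 0.22, where counting error alone would give 0.14. HIST1H2BK had the smallest SD, 0.13, and HIST1H3A the largest, 0.91. In HIST1H3A the raw counts were 2, 16 and 16 in DMSO, 16, 11 and 10 with HBC530, and 6, 12 and 5 with MsOc3HBC.

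Replicate 3 of each ligand stood apart from the other 7 libraries over all genes. On the first principal component of 18041 genes these 2 libraries lay at 36.9 and 48.8, and the others between -20.3 and -4.28. They also had the lowest totals, 34963314 and 28056929 counts. Defining markers of the line (VIM, NEFM, NEFL, LHX1 and PAX2) were present in all libraries at 2.09 CPM or more, and PTPRC, HBG1 and ALB, markers of blood, erythroid and liver cells, stayed at 0.0549 CPM or less. With MsOc3HBC against DMSO, 4 of the 5 markers had an unadjusted p under 0.05 in edgeR's quasi-likelihood test, NEFM higher and PAX2, LHX1 and NEFL lower, against 10.9% of all genes, and none passed the adjusted p. Between the ligands, with the replicate number as a block, 1 of the 5 passed it, against 11.4% of all genes. It was NEFL at -0.18 ± 0.0558 (adjusted p = 0.0490 in edgeR's quasi-likelihood test). Each comparison below is therefore also given without the replicate 3 libraries.

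The first comparison asked whether HBC530, which does not react with RNA, altered these genes. None of the 34 passed an adjusted p of 0.05 in edgeR's quasi-likelihood test when adjusted by Benjamini-Hochberg over 17684 genes, where 0.0170% of all genes passed. DESeq2 and limma-voom also called 0 of 34. At an unadjusted p under 0.05 there were 4 genes, all higher with HBC530, against 2.70% of all genes on that side. The fitted log2 fold change was above 0 for 30 of 34 genes, against 51.1% of all genes, and its median was 0.18 against 0.0046 over all genes. The smallest adjusted p among the 34 was 0.751.

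That balance depended on single libraries, HBC530 replicate 3 and DMSO replicate 1 among them. Without HBC530 replicate 3 the median was 0.07 and 21 of 34 genes were above 0. Without DMSO replicate 1 the median was 0.15 and 23 of 34 genes were above 0. Without HBC530 replicate 2 the median was 0.34. In HBC530 replicate 3, 27 of 34 genes lay above all 3 DMSO libraries, against 39.2% of all genes. For HBC530 replicate 1 it was 18 of 34 against 22.8%, and for HBC530 replicate 2 it was 7 of 34 against 23.7%. The median log2 ratio to the DMSO mean was 0.49 in replicate 3, 0.17 in replicate 1 and -0.02 in replicate 2, and among the DMSO libraries it ranged from -0.13 in replicate 1 to 0.07 in replicate 2. Short genes also lay higher there: all 1997 tested genes with a model under 1000 bases had a median log2 ratio of 0.30 in HBC530 replicate 3 and 0.22 in MsOc3HBC replicate 3. In MsOc3HBC replicate 1 the short genes had 0.16 and the 34 histone genes -0.12. The part of gene length in the histone values was not tested library by library, but with trends of exonic length and GC content removed the median of the 34 genes against DMSO was 0.15.

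**Figure D2:**
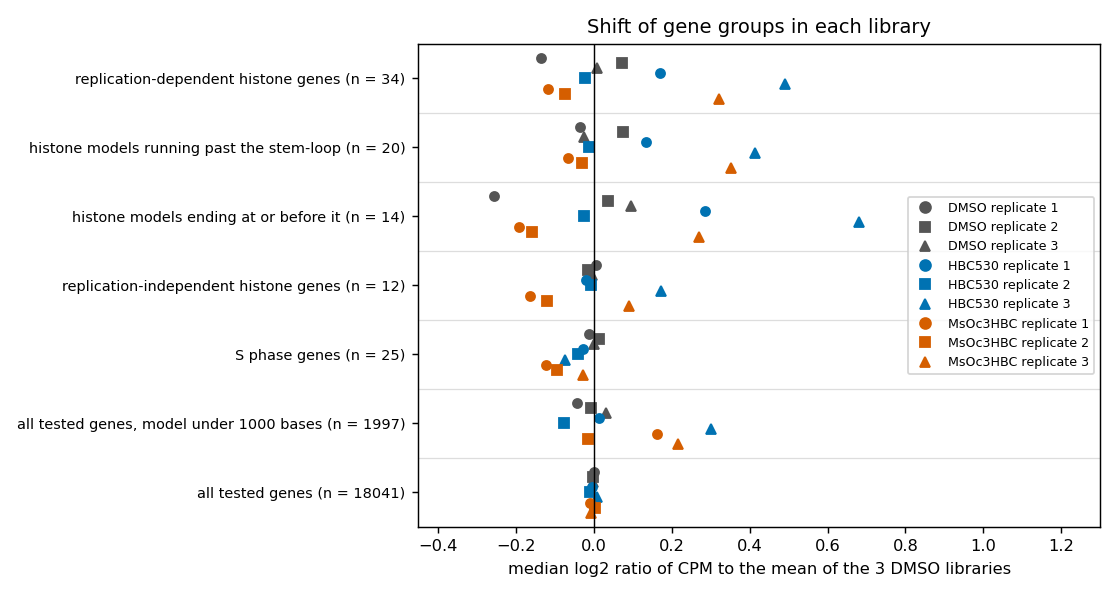
Median log2 ratio of CPM to the mean of the 3 DMSO libraries for 7 groups of genes, with 1 point per library. The replication-dependent histone genes lie highest in replicate 3 of HBC530 at 0.49 and of MsOc3HBC at 0.32, while the median of all 18041 tested genes lies within 0.01 of 0 in every library.

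The linker histone H1 binds DNA between nucleosomes. HIST1H1C was at 7.0, 6.34 and 6.09 CPM in DMSO, 6.57, 6.28 and 10.6 CPM with HBC530, and 6.70, 6.51 and 9.67 CPM with MsOc3HBC. Replicate 3 of each ligand was thus high, and the other 4 ligand libraries lay within the range of DMSO. HIST1H1E was at 0.960, 1.12 and 0.834 CPM in DMSO, 1.43, 0.968 and 1.61 CPM with HBC530, and 1.17, 0.732 and 1.72 CPM with MsOc3HBC, and its groups overlapped. Against DMSO, HIST1H1C had a log2 fold change of 0.26 ± 0.18 (SE) with HBC530 and 0.22 ± 0.16 with MsOc3HBC, with adjusted p of 0.751 and 0.616.

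H2A and H2B pair as a dimer in the nucleosome. The sum over the 7 H2A genes was 22.6 ± 2.74 CPM in DMSO, 25.5 ± 3.32 with HBC530 and 22.7 ± 1.91 with MsOc3HBC, and all 7 had a fitted value above 0 with HBC530. HIST3H2A, the most abundant, was at 13.2, 15.9 and 16.1 CPM in DMSO, 16.3, 14.8 and 20.1 with HBC530, and 14.9, 15.5 and 16.6 with MsOc3HBC. Its log2 fold change with HBC530 was 0.18 ± 0.13 (SE), with a 95% interval from -0.12 to 0.47. HIST2H2AC, HIST1H2AH and HIST1H2AC, the others with high levels per kilobase, had log2 fold changes of 0.29, 0.19 and 0.00, and their groups overlapped. HIST1H2AM was at 0.458, 0.384 and 0.337 CPM in DMSO and at 0.571, 0.519 and 0.576 CPM with HBC530, so these groups did not overlap, and the log2 fold change was 0.51 ± 0.23 with an unadjusted p of 0.0538 in edgeR's quasi-likelihood test. Its model shares 346 of its bases, 88.0%, with HIST1H3J on the same strand, and reads from that stretch fit both models. Where only unique gene hits are counted, such reads are credited to neither gene. The value of HIST1H2AM may thus rest on the small remainder of its model.

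Among the H2B genes, HIST1H2BK was measured with the smallest spread. It was at 28.3, 32.8 and 34.4 CPM in DMSO, 33.4, 31.4 and 33.2 CPM with HBC530, and 26.7, 28.3 and 33.5 CPM with MsOc3HBC. All 3 groups overlapped, and the log2 fold change with HBC530 was 0.04 ± 0.10 (SE), with a 95% interval from -0.18 to 0.26. HIST1H2BD, HIST1H2BJ and HIST1H2BO had log2 fold changes of 0.05, 0.11 and 0.11, also with overlapping groups. HIST2H2BF was at 0.589, 0.651 and 0.449 CPM in DMSO and at 0.799, 0.743 and 1.03 CPM with HBC530, without overlap, and its log2 fold change was 0.58 ± 0.23 (unadjusted p = 0.028, adjusted p = 0.751 in edgeR's quasi-likelihood test). Its 4-exon model of 3196 bases runs past the stem-loop and overlaps FCGR1A on the opposite strand over 177 bases.

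H3 and H4 form the tetramer at the centre of the nucleosome. HIST1H3H was at 1.48, 1.89 and 1.54 CPM in DMSO, 2.06, 1.99 and 2.52 CPM with HBC530, and 1.48, 1.52 and 1.72 CPM with MsOc3HBC. The HBC530 libraries lay above all others, and the log2 fold change against DMSO was 0.40 ± 0.16 (SE, unadjusted p = 0.0322, adjusted p = 0.751 in edgeR's quasi-likelihood test). The other H3 genes with high levels, HIST1H3B, HIST2H3D and HIST1H3J, had log2 fold changes of 0.41, -0.06 and 0.34 with overlapping groups. HIST2H3D shares 21.8% of its 100-base windows with another H3 gene, so unique counting could miss part of its reads. Larger shares were found in HIST1H2AM, 84.0% with HIST1H3J, in HIST1H4J, 77.7% with another H4 gene, and in HIST1H2AI, 57.7% with another H2A gene. HIST1H3J shares 42.8% with HIST1H2AM, whose model overlaps its own, so its value carries the same limit.

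The H4 genes held the value with the smallest p against DMSO. HIST1H4D was at 0.131, 0.317 and 0.192 CPM in DMSO, 0.362, 0.467 and 0.424 CPM with HBC530, and 0.224, 0.165 and 0.485 CPM with MsOc3HBC. These values stand for 6 to 27 raw counts, the HBC530 and DMSO libraries did not overlap, and the log2 fold change was 0.93 ± 0.34 (SE, unadjusted p = 0.0192, adjusted p = 0.751 in edgeR's quasi-likelihood test). HIST1H4H, whose model of 3 exons runs past the stem-loop, was at 0.545, 0.551 and 0.609 CPM in DMSO, 0.761, 0.674 and 1.27 CPM with HBC530, and 0.829, 0.622 and 0.746 CPM with MsOc3HBC, so both ligands lay above DMSO. Its log2 fold change was 0.60 ± 0.26 with HBC530 and 0.35 ± 0.23 with MsOc3HBC. HIST1H4I, the most abundant H4 gene in CPM, was at 10.5, 10.4 and 10.1 CPM in DMSO, 9.04, 8.68 and 10.9 with HBC530, and 9.53, 10.3 and 13.2 with MsOc3HBC. Its log2 fold change of -0.12 ± 0.11 was the lowest of the 34 with HBC530. HIST1H4C and HIST1H4B had 0.27 and 0.41, with overlapping groups.

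In all, 5 of 34 genes had HBC530 libraries wholly above DMSO, against 7.17% of all genes, and 0 had them wholly below, against 6.64%. The 5 were HIST1H2AM, HIST2H2BF, HIST1H3H, HIST1H4D and HIST1H4H. Of the 95% intervals of the 34 log2 fold changes, 24 lay within -1 to 1 and 8 within -0.5 to 0.5.

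**Figure D3:**
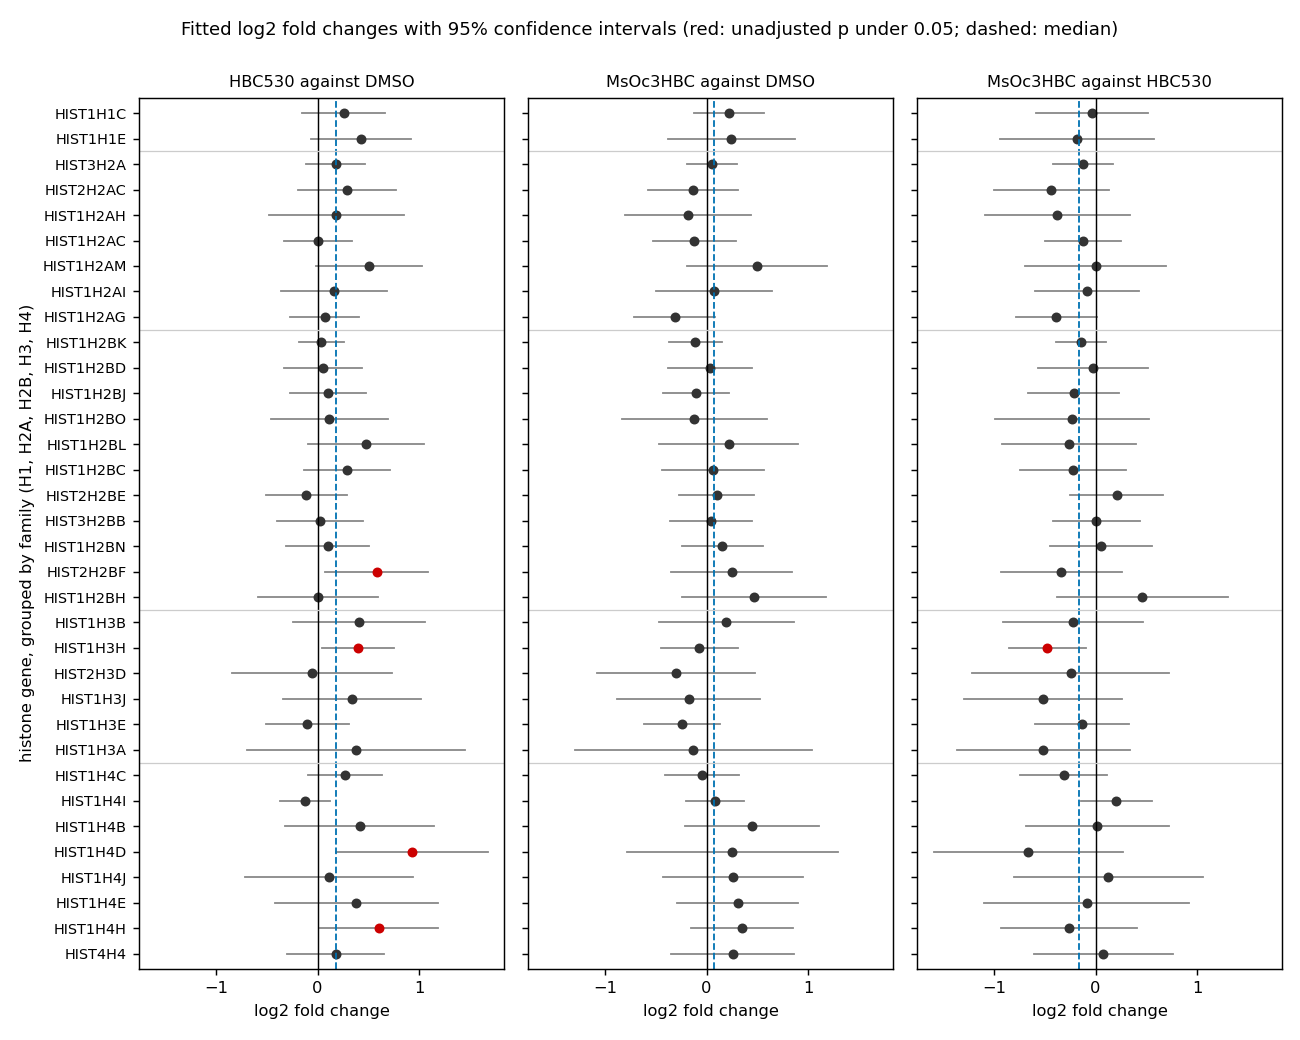
Fitted log2 fold change of the 34 histone genes with 95% confidence intervals in the 3 comparisons, grouped by family in the order of the level plot. Red points have an unadjusted p under 0.05 (4, 0 and 1 genes), none passed after adjustment, and the dashed lines mark the medians of 0.18, 0.07 and -0.17.

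The second comparison asked the same of MsOc3HBC, the ligand with the reactive handle. None of the 34 genes passed the adjusted p of 0.05 over 17514 genes in edgeR's quasi-likelihood test, where 0.154% of all genes did, nor did any with DESeq2 or limma-voom. At an unadjusted p under 0.05 there were 0 of 34, against 10.9% of all genes. The log2 fold change was above 0 for 21 of 34, against 52.4% of all genes, with a median of 0.07 against 0.01 over all genes. Without MsOc3HBC replicate 3 the median was -0.05 and 15 genes were above 0. It was 0.13 without MsOc3HBC replicate 2, 0.11 without DMSO replicate 2, and 0.01 without DMSO replicate 1, so the sign depended on which libraries were included.

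The members with the smallest p were HIST1H2AG, HIST1H2AM and HIST1H4H. HIST1H2AG was at 1.68, 2.09 and 2.18 CPM in DMSO, 2.30, 2.06 and 1.88 CPM with HBC530, and 1.37, 1.87 and 1.53 CPM with MsOc3HBC. Its MsOc3HBC and DMSO libraries overlapped, and its log2 fold change of -0.31 ± 0.18 (SE, unadjusted p = 0.111, adjusted p = 0.547 in edgeR's quasi-likelihood test) was the lowest of the 34. The highest was that of HIST1H2AM, 0.50 ± 0.31, whose level in MsOc3HBC was 0.381, 0.530 and 0.821 CPM. HIST1H4H lay above DMSO in all 3 MsOc3HBC libraries and was the only gene of 34 without overlap on that side, against 9.34% of all genes, and 0 of 34 lay wholly below, against 8.96%. Of the 95% intervals, 28 of 34 lay within -1 to 1 and 9 within -0.5 to 0.5.

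The families did not point one way. All 6 H3 genes but HIST1H3B were below 0 with MsOc3HBC, with a median of -0.15, and 7 of 8 H4 genes were above 0, with a median of 0.26. The H3 sum was 5.07 ± 0.620 CPM in DMSO and 4.81 ± 0.585 with MsOc3HBC, and the H4 sum was 17.1 ± 0.615 in DMSO and 18.5 ± 3.27 with MsOc3HBC, and in both families the groups overlapped. In MsOc3HBC replicate 3, 20 of 34 genes lay above all DMSO libraries, against 36.9% of all genes, while in MsOc3HBC replicates 1 and 2 it was 8 and 6 of 34, against 30.8% and 26.5%. The median log2 ratios to the DMSO mean were 0.32 in replicate 3, -0.12 in replicate 1 and -0.07 in replicate 2.

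**Figure D4:**
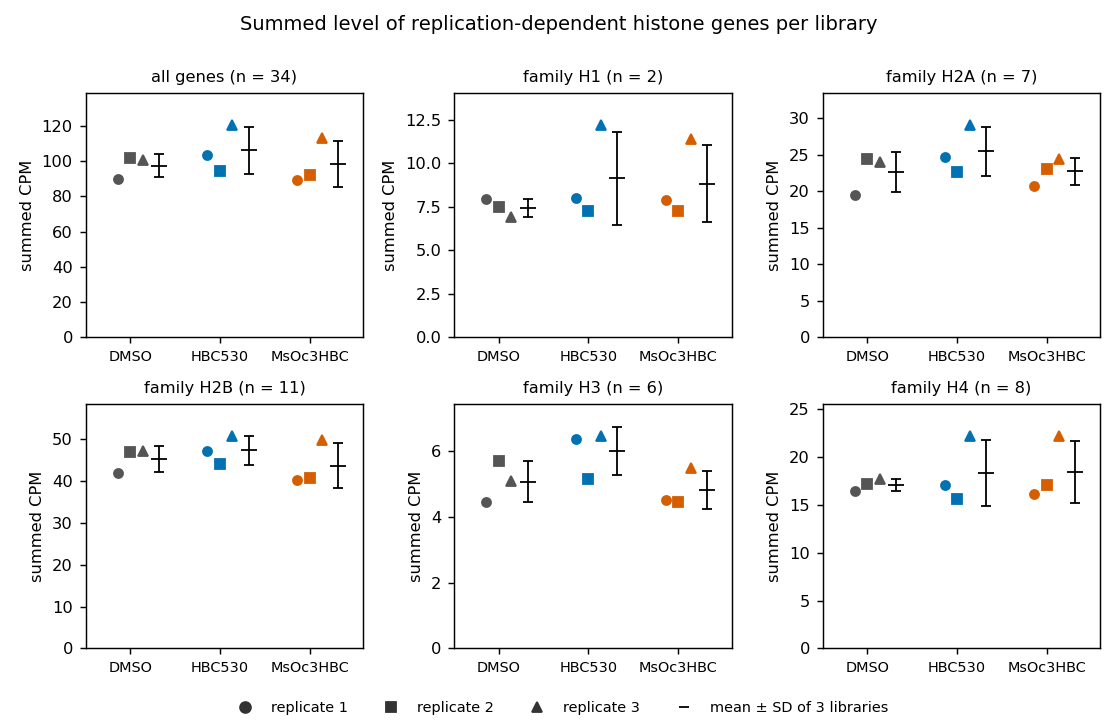
Summed CPM of the 34 histone genes and of each family in each library, with the mean ± SD of the 3 libraries per treatment beside the points and axes starting at 0. The sum over all 34 was 97.5 CPM in DMSO, 106 CPM with HBC530 and 98.4 CPM with MsOc3HBC, and replicate 3 of each ligand was the highest of its group in every panel.

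The third comparison set the ligands against each other at the same dose and time, over 34 genes. edgeR's quasi-likelihood test called 0 of 34 at an adjusted p under 0.05 (0.00% of 17397 genes passed), DESeq2 and limma-voom called 0 of 34, and 1 of 34 had an unadjusted p under 0.05, against 7.32% of all genes. That gene was lower with MsOc3HBC, as were 4.22% of all genes at this p. DESeq2 did not give every member an adjusted p here, and HIST1H4B had none. The log2 fold change of MsOc3HBC over HBC530 was above 0 for 9 of 34, against 53.8% of all genes, with a median of -0.17 against 0.02. HIST1H3H had the smallest p, with a log2 fold change of -0.47 ± 0.16 (SE, 95% interval -0.85 to -0.10, unadjusted p = 0.0198, adjusted p = 0.643 in edgeR's quasi-likelihood test), and its MsOc3HBC libraries, at most 1.72 CPM, lay below its HBC530 libraries, at least 1.99 CPM. With HIST1H2AG it was 1 of 2 genes of 34 that lay wholly below, against 8.50% of all genes, and 0 of 34 lay wholly above, against 6.83%.

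The next smallest p were those of HIST1H2AG and HIST2H2AC. HIST1H2AG had a log2 fold change of -0.38 ± 0.17 and HIST2H2AC of -0.44 ± 0.25. The libraries of HIST1H2AG did not overlap, with a gap from 1.87 to 1.88 CPM, and those of HIST2H2AC did. HIST2H2AC was at 1.26, 1.07 and 1.82 CPM with HBC530 and at 0.852, 1.02 and 1.16 CPM with MsOc3HBC. The range over the 34 genes ran from -0.66 ± 0.40 in HIST1H4D to 0.46 ± 0.37 in HIST1H2BH. Of the 95% intervals, 25 lay within -1 to 1 and 4 within -0.5 to 0.5, so a 2-fold difference between the ligands lay outside the interval for most of the genes, and a difference of 0.5 on the log2 scale for few.

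Deviations of the ligand libraries correlated by replicate number, though no label states a pairing. With the replicate as a block edgeR called 1990 genes in place of 0, which was 11.4% of all genes, and 0 of the 34. The smallest adjusted p among the 34 was then 0.0645, that of HIST1H3H, with a log2 fold change of -0.46 ± 0.15. With trends of exonic length and GC content also removed, 1.85% of all genes and 0 of the 34 were called. Without replicate 3 of both ligands, 1635 genes were called, 9.16% of all genes, and 1 of the 34, HIST1H2BK, with -0.24 ± 0.0688 (SE, adjusted p = 0.0389 in edgeR's quasi-likelihood test). The median was -0.29 without MsOc3HBC replicate 3, -0.28 without HBC530 replicate 2, -0.06 without HBC530 replicate 3 and -0.08 without MsOc3HBC replicate 1, all of the same sign.

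Models that ran past the stem-loop and models that ended at or before it held nearly equal shares of the counts, HIST1H2BK included. Without HIST1H2BK the early-ending models summed to 16.8 CPM in DMSO, 20.9 CPM with HBC530 and 18.3 CPM with MsOc3HBC. In the longer-running models the sums were 48.9, 52.7 and 50.6 CPM. The longer-running models had 50.2 ± 1.52% of the summed CPM in DMSO, 49.6 ± 0.759% with HBC530 and 51.5 ± 1.33% with MsOc3HBC (SD, n = 3), and the share ranged from 48.5 to 52.3% over all libraries. With HBC530 their median log2 fold change was 0.13 over 20 genes and that of the early-ending models was 0.28 over 14. With MsOc3HBC the medians were 0.08 and -0.08. The difference between the model kinds was not tested, and the early-ending models had a median GC content of 60.4% against 47.3%. Models of 1000 bases or more, 13 of the 34, had 26.5 ± 1.41% of the summed CPM in DMSO, 25.0 ± 0.434% with HBC530 and 27.1 ± 0.527% with MsOc3HBC.

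RNAs that have no poly(A) tail were looked up for how much of such RNA passed the selection. Of 18 genes, 3 had enough counts to be tested, the signal recognition particle RNA gene RN7SL2, the small Cajal body RNA gene SCARNA13 and the U3 snoRNA gene SNORD3A. RN7SL2 was at 39.1, 32.4 and 36.3 CPM in DMSO, 31.0, 37.0 and 26.9 CPM with HBC530, and 29.3, 38.9 and 40.1 CPM with MsOc3HBC, and its groups overlapped. RN7SL2 was lowest in HBC530 replicate 3 and highest in MsOc3HBC replicate 3. SNORD3A was at 1.18, 1.02 and 0.850 CPM in DMSO, 1.12, 0.761 and 1.61 CPM with HBC530, and 1.39, 0.768 and 1.53 CPM with MsOc3HBC, so it was highest in the same 2 libraries as the histone genes. The part of such RNA in the histone values was not tested. SCARNA13 had a log2 fold change of -0.30 ± 0.28 with HBC530, 0.32 ± 0.28 with MsOc3HBC and 0.62 ± 0.29 between the ligands, and none of the 3 had an unadjusted p under 0.05 in any comparison without the block, nor an adjusted p under 0.05 between the ligands with it. RN7SL1 was at 0 in all libraries, as were RN7SK, RMRP, RPPH1, RNU12 and SCARNA2. The reason for these values of 0 was not tested, so they do not show how the selection worked. Since RN7SL1 and RN7SL2 are near-identical copies, unique counting could split them.

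The other genes of the pathway were read from the same fits. None passed an adjusted p of 0.05 in the 3 comparisons without a replicate block. With the replicate number as a block, some did between the ligands, and these are given by list. No label states a pairing of these libraries. The part of replicate 3 of both ligands, which stood apart, in the blocked calls was not tested. Of 24 genes for histone gene transcription, 3′ processing and mRNA decay, 1 had an unadjusted p under 0.05 with HBC530, 0 with MsOc3HBC and 2 between the ligands, against 5.07%, 10.9% and 7.32% of all genes. The medians were -0.02, 0.03 and 0.06. POU2F1, the Oct-1 factor of H2B promoters, had a log2 fold change of -0.21 ± 0.0840 with HBC530. LSM10, a protein of the U7 snRNP, had 0.24 ± 0.117 with the same ligand. CASP8AP2, a partner of the histone locus body factor NPAT, had 0.25 ± 0.138 with MsOc3HBC and 0.38 ± 0.0990 between the ligands, and CSTF2, a cleavage factor subunit, had -0.18 ± 0.0855 with MsOc3HBC. SYMPK, the scaffold of the cleavage complex, had -0.30 ± 0.123 between the ligands. With the block 5 of the 24 passed between the ligands, 3 higher and 2 lower with MsOc3HBC, against 11.4% of all genes. CASP8AP2 was then at 0.38 ± 0.0584 (adjusted p = 0.00274 in edgeR's quasi-likelihood test) and SYMPK at -0.30 ± 0.0516 (adjusted p = 0.00430). Both also passed with length and GC trends removed, at 0.25 ± 0.0582 and -0.22 ± 0.0470, where 1.85% of all genes did. The others that passed with the block, named after their values were seen, were LSM10, NCBP2 and ZCCHC6, and these did not pass with the trends removed.

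Of 11 histone chaperones, which carry new histones to DNA, 1 had an unadjusted p under 0.05, NASP with MsOc3HBC at 0.25 ± 0.0992, against 10.9% of all genes. Their medians were -0.03 with HBC530, 0.01 with MsOc3HBC and 0.02 between the ligands. RBBP7 and RBBP4 had -0.10 each with HBC530, DAXX had -0.13 with MsOc3HBC, and between the ligands DAXX had -0.13 and RBBP4 0.13. With the block 0 of 11 passed, against 11.4% of all genes. With length and GC trends also removed 1 did, against 1.85% of all genes. It was ASF1A, named after its value was seen, at -0.29 ± 0.0621 (adjusted p = 0.0304 in edgeR's quasi-likelihood test). Of 12 replication-independent histone genes, 0 had an unadjusted p under 0.05 with HBC530, 3 had an unadjusted p under 0.05 with MsOc3HBC, 1 of them higher, and 2 between the ligands, both lower. The shares of all genes were 5.07%, 10.9% and 7.32%. H2AFJ, the gene of H2A.J, had log2 fold changes of 0.29 ± 0.157 with HBC530 and 0.41 ± 0.155 with MsOc3HBC. H2AFX, the gene of H2A.X, had 0.22 ± 0.113 with HBC530 and -0.42 ± 0.134 between the ligands. CENPA, the centromeric H3, had -0.23 ± 0.103 with MsOc3HBC, and H1FX, a linker histone, had -0.36 ± 0.0945 between the ligands. With the block 11.4% of all genes and 3 of the 12 passed between the ligands, the 3 all lower with MsOc3HBC. They were H2AFX at -0.43 ± 0.0487, H1FX at -0.36 ± 0.0446 and CENPA at -0.24 ± 0.0657, with adjusted p of 0.000670, 0.00120 and 0.0347 in edgeR's quasi-likelihood test. With length and GC trends also removed, where 1.85% of all genes passed, H2AFX at -0.29 ± 0.0575 and CENPA at -0.29 ± 0.0658 still did, and H1FX did not.

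Most genes of S phase had fitted values below 0. Of 25, 16 had a log2 fold change below 0 with HBC530 and 22 with MsOc3HBC, with medians of -0.05 and -0.09, and none passed the adjusted p. With HBC530, 3 of 25 had an unadjusted p under 0.05, all lower, against 2.38% of all genes on that side, and with MsOc3HBC 5 of 25, all lower, against 4.78%. RRM2, the small subunit of ribonucleotide reductase, had -0.23 ± 0.0793 with HBC530 and -0.30 ± 0.0879 with MsOc3HBC. CCNE2, cyclin E2, had -0.41 ± 0.128 with HBC530, and CCNA2, cyclin A2, had -0.25 ± 0.0909 with MsOc3HBC. Between the ligands, MCM5, a subunit of the replicative helicase, had -0.29 ± 0.0783 and E2F1, an activator of S phase genes, had -0.16 ± 0.0888. With the block 3 of 25 passed between the ligands, near the share of 11.4% over all genes. These 3 were lower with MsOc3HBC, and all were MCM subunits of the replicative helicase. The other MCM genes listed, MCM3, MCM4 and MCM6, did not pass, at -0.06, -0.04 and -0.07. Nor did CDC45 or the listed GINS genes. MCM5 was at -0.29 ± 0.0445 (adjusted p = 0.00266 in edgeR's quasi-likelihood test), and MCM2 and MCM7, named after their values were seen, were at -0.16 ± 0.0466 and -0.15 ± 0.0441. Of these, MCM5 also passed with length and GC trends removed, where 1.85% of all genes did. The median log2 ratio of the S phase genes to the DMSO mean was -0.03, -0.04 and -0.07 in HBC530 replicates 1 to 3 and -0.12, -0.09 and -0.03 in MsOc3HBC replicates 1 to 3. Whether the share of cells in S phase differed was not tested.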

How the data were processed

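RNA of HEK293T cells was poly(A) selected and sequenced in 9 libraries. According to the submitters' processing notes and the study's methods, trimming was done by Trimmomatic 0.36, mapping to GRCh38 by STAR 2.5.2b and counting of unique gene hits by featureCounts of Subread 1.5.2. The deposited count files hold raw counts of 57500 genes. The signal columns of the 2 deposited tables hold counts that the authors divided by DESeq2 size factors, and these tables were used here for gene names only. The fold changes and p-values in these tables are the authors' own comparisons and were not used. The annotation release and strand setting are not given in the sources used here.

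Groups were taken from the sample titles. Raw counts were analysed in R 4.3.3 with edgeR 4.0.16 (filterByExpr, TMM, quasi-likelihood F test), 3 libraries against 3, with p-values adjusted over all genes tested. CPM values use TMM factors of all 9 libraries, and ratios to the DMSO mean use a pseudocount of 0.01 CPM. Stem-loops, overlaps and GC content were read from GRCh38, with stop codons of GENCODE v44, which held 98.1% of the gene IDs. HIST1H3B was matched by its place. The wider stem-loop rule and the split by the end of the model were chosen after the sequences were seen.

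The members and gene lists were chosen with earlier results of these data known, so lists were given no test. Named members were the 4 with the highest level per kilobase in each family, any with an adjusted p under 0.05, the 3 smallest p-values and the highest and lowest fold change of each comparison, and the 2 nearest the count limit on each side. Of the other lists the 2 smallest p-values per comparison were named. Alternatives were DESeq2 1.42.0, limma-voom (limma 3.58.1), RLE and upper-quartile factors, other filters, all libraries in 1 fit, a replicate block, removal of length and GC trends, and each library left out. The replicate numbers were checked for pairing by correlating deviations from the treatment means across 18041 genes. Between MsOc3HBC and HBC530 the correlations were 0.167, 0.368 and 0.433, so the blocked values are given beside that comparison. Replicate 3 of both ligands stood apart, which can itself raise these correlations, and no label states a pairing. Fits were tested on simulated counts. Biological replicates are stated, but not how cultures were separated, so p-values measure the spread between these libraries.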

Additional observations from a re-analysis of the deposited data

How the results depend on the processing

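No alternative called a member in either comparison with DMSO, over 16 alternatives each. Between the ligands, over 17 alternatives, only the fit without replicate 3 of both ligands called any, 1 gene (HIST1H2BK). Of 1214 alternative values of the 25 named members 83 had another sign than the reported value, none of them a call, and the largest reported value among these was 0.37 in size. No label states whether ligand and DMSO libraries were paired. Their deviations correlated by replicate at 0.0871, 0.0127 and 0.172 for HBC530 and at -0.111, 0.00973 and 0.0410 for MsOc3HBC. With the replicate block the members' median against DMSO was 0.21 for HBC530 and 0.07 for MsOc3HBC. The calls over all genes went from 3 to 16 and from 27 to 149. Between the ligands the block gave a median of -0.17 and 1990 calls over all genes. With length and GC trends also removed it gave 321 calls, and neither fit called a member. Leaving out libraries gave medians of 0.07 to 0.34 for HBC530, -0.05 to 0.13 for MsOc3HBC and -0.29 to -0.06 between the ligands. Over all genes edgeR called 3, 27 and 0, DESeq2 20, 133 and 24, limma-voom 5, 21 and 0, and edgeR without a filter on low counts 52, 250 and 12.

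The summed CPM over members with a mean raw count of 100 or more was 76.7 in DMSO, 81.5 with HBC530 and 76.5 with MsOc3HBC. The share of summed CPM in long models depended on the limit: at 750 bases it was 50.4, 49.8 and 51.6%, at 1500 bases 13.5, 13.2 and 13.5%, and for models running past the stem-loop 50.2, 49.6 and 51.5%. At these depths 18 of the 34 genes had a mean raw count under 50, and intervals of most fold changes reach beyond 0.5 on the log2 scale. With length and GC trends removed, the median was 0.15 for HBC530, 0.00 for MsOc3HBC and -0.17 between the ligands.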
